A study of Mus musculus with 12 samples.

Results

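Circadian clock and clock output genes were described here in adult mouse hearts. The set was chosen by name and holds 10 of the 55401 genes in the count files: Dbp, Tef, Hlf, Nr1d1, Nr1d2, Per1, Per2, Per3, Arntl and Ciart. They were followed in every library as a possible sign of when the tissue was collected, since none of the sources used here gives a time of day or a light schedule. The files hold whole-number counts for 12 libraries, 3 in each of 4 groups: WT Input, KO Input, WT IP and KO IP. KO hearts are Rpl3l-/-, lacking a muscle form of a ribosomal protein of the large subunit, and WT hearts carry the gene. Per the labels' protocols, IP libraries hold RNA that came down with HA-tagged ribosomes on antibody-coated beads, from hearts put into cycloheximide, which stalls ribosomes, as they were excised. Input libraries hold RNA extracted from heart homogenate with TRIzol, while IP RNA was purified on columns, so fraction and purification cannot be told apart. Both were enriched for poly(A) RNA and sequenced as direct cDNA on a nanopore MinION. The sources used here do not state which cells carry the tag, whether both fractions came from one heart, or the sex and, beyond adult, the age of the mice. The labels call the replicates biological, and p-values measure the spread between them.

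The mammalian clock is a transcriptional feedback loop. ARNTL (also called BMAL1) pairs with CLOCK or NPAS2 and binds E-box elements in the promoters of its targets, among them the Per and Cry repressors, the Nr1d receptors, Ciart and Dbp. PER and CRY proteins then inhibit that pair, while NR1D1 and NR1D2 (REV-ERB alpha and beta) bind RRE elements and repress Arntl, so that Arntl and genes such as Dbp and Nr1d1 peak at nearly opposite times of day. DBP, TEF and HLF are related bZIP activators that bind D-box elements and carry the rhythm to output genes, and in the heart the loop runs in the cardiomyocytes themselves, where it sets daily rhythms of metabolism and of ion channels.

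Depth limited what could be seen. Library totals ran from 169359 counts (KO Input replicate 3) to 710868 (KO IP replicate 2), so that 3 counts are worth 4.22 to 17.7 CPM (counts per 1000000). Of all genes, 38803 were at 0 in each of the 12 libraries, and 6596 passed the filter on low counts and were tested. Globin genes, a sign of blood, took 1.70% to 17.2% of counts, most in WT IP replicate 2. The labels were checked on the targeted gene. Rpl3l ranged from 222 to 308 CPM in WT Input and from 269 to 275 CPM in WT IP, against 27.0 to 68.5 CPM in KO Input and 2.33 to 8.31 CPM in KO IP. Its log2 fold change in KO was -2.46 in Input (SE 0.27, edgeR adjusted p = 1.77e-05) and -5.84 in IP (SE 0.33, adjusted p = 9.27e-12). The summed CPM of 7 cardiomyocyte markers lay between 49794 and 60913 in each library, although Actc1, the cardiac actin gene, was at 0 in every one.

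Of the 10 clock genes, 9 had counts. Of these, 7 passed the filter (Dbp, Tef, Hlf, Nr1d1, Nr1d2, Per1 and Per3). Per2 with 42 counts and Arntl with 43 counts over the 12 libraries did not, and Ciart was at 0 throughout, so these 3 enter no count of tested genes. Ciart cannot be read as silent from this 0. It lies on chr3:95878503-95882251, wholly inside a non-coding gene, and each of the 275 protein-coding genes in that position was at 0 in the 12 libraries. Among protein-coding genes inside another protein-coding gene, 42.1% (385 of 914) were at 0, and among those inside no other gene 29.8% (6177 of 20695) were. Actc1 and Wee1, a cell-cycle kinase gene driven by the clock, lie in the same position as Ciart and were also at 0. Which rule gave these zeros was not tested, since no source used here names the counting tool. Taken at face value, a count of 0 over all 12 libraries allows up to 0.535 CPM, a limit for counting error only.

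Promoters of some of these genes hold the letters of elements through which the loop acts, and 6 such windows are shown. RefSeq promoters (build GRCm38.p6, 250 bases before to 50 after each annotated start) matched 9 of the 10 genes with 12 promoters in all, and Per2 had no entry. Both strands were searched for the E-box CACGTG, the E'-box CACGTT, the D-box TTANGTAA, the RRE TAGGTCA and the CRE TGACGTCA, none of which overlaps another here. An E-box was found in 4 of the 12 promoters, belonging to 3 genes. These were both promoters of Tef (first base at -127 and -138 from the start), 1 promoter of Per1 (-166) and that of Ciart, which holds 3 (-116, -58 and -44). Of all 32851 promoters listed by RefSeq there, 7.15% hold an E-box, 4.68% an E'-box, 2.32% a D-box, 2.61% an RRE and 1.79% a CRE. The promoter of Per3 holds 2 D-boxes (-205 and -158) and that of Nr1d1 an E'-box (-28). An RRE was found in 1 promoter of Arntl (position 31, after the start) and a CRE, the element bound by CREB, in that of Hlf (-9). In the windows of Dbp and Nr1d2 none of these letters was found, which says nothing of elements outside them. Sequences run 5′ to 3′ on the strand of the gene, with the element in capitals, and the E'-box of Nr1d1 reads AACGTG on this strand.
Tef, chr15:81802524-81802573, plus strand: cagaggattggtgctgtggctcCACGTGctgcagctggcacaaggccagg
Per1, chr11:69098761-69098810, plus strand: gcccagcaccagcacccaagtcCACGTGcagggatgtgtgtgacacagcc
Nr1d1, chr11:98775378-98775427, minus strand: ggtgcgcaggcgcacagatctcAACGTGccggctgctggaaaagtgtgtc
Arntl, chr7:113207530-113207558, plus strand: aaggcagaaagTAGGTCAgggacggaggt
Ciart, chr3:95882229-95882478, minus strand: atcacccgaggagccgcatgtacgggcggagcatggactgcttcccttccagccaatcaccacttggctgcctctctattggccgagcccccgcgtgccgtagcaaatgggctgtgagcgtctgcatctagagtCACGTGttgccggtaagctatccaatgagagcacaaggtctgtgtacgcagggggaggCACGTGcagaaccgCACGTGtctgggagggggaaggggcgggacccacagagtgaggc
Per3, chr4:151044666-151044915, minus strand: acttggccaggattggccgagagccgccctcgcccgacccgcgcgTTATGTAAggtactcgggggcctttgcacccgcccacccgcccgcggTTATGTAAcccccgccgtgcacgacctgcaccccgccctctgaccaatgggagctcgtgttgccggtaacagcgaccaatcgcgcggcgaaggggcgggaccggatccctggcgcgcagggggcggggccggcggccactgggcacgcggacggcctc

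Levels between genes were compared per kilobase of the longest annotated transcript. In WT Input, Dbp had the highest mean level at 43.0 ± 14.3 CPM per kb (SD, n = 3), followed by Nr1d1 at 26.1 ± 5.59, Tef at 18.3 ± 4.60 and Nr1d2 at 15.7 ± 3.07. The lower genes were Per3 at 5.09 ± 1.26, Per1 at 4.90 ± 3.50, Arntl at 2.70 ± 2.13, Hlf at 2.06 ± 0.922 and Per2 at 1.04 ± 0.580. Neighbours in this order overlapped over their 3 libraries except at the step from Nr1d2 (lowest library 12.2) to Per3 (highest library 6.16). The output gene Dbp, the REV-ERB receptors and Tef therefore stood above the Per genes, Hlf and Arntl. Without the division this held too, as their lowest WT Input library had 53.7 CPM (Dbp) and the highest of the others 39.5 (Per1). The order among these 4 genes rests on the division, as Dbp and Tef had 90 counts each in WT Input and Nr1d1 had 77. Whether counts rise with transcript length in these nanopore libraries was not tested. In the other groups the same 4 genes led, Dbp at 59.5 ± 29.8 CPM per kb in KO Input, 94.1 ± 12.9 in WT IP and 80.4 ± 29.8 in KO IP.

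**Figure D1:**
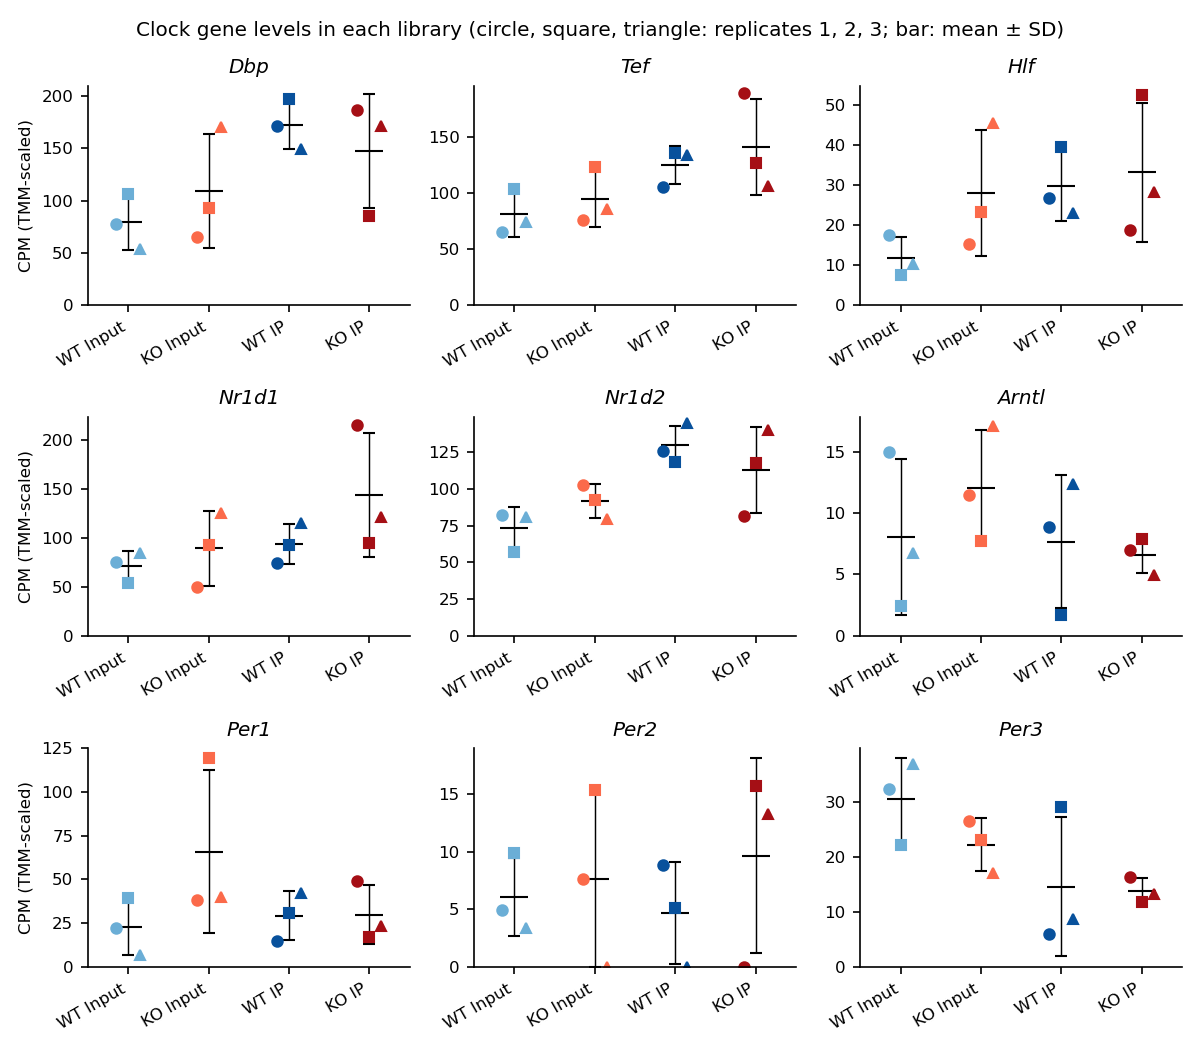
Each panel shows 1 clock gene in TMM-scaled CPM (vertical axis, from 0, its own scale in each panel) in the 4 groups, with 1 symbol per library and the mean ± SD as bars (n = 3). The 3 WT IP libraries of Dbp and of Nr1d2 lie above the 3 WT Input libraries, while KO and WT libraries of the same fraction overlap in each panel.

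Dbp (chr7:45705088-45710203, plus strand), the D-box activator whose transcript is among the most strongly cycling in many tissues, was counted 725 times in all. Its CPM over replicates 1, 2 and 3 was 77.3, 106 and 53.7 in WT Input, 64.7, 92.4 and 170.5 in KO Input, 172, 197 and 149.7 in WT IP, and 187, 85.0 and 171 in KO IP. All 3 WT IP libraries were above the WT Input libraries, whereas in KO hearts the fractions overlapped, with KO IP replicate 2 low and KO Input replicate 3 high. Dbp shares 18.0% of its exon bases (539 of 2993) with Sphk2 on the opposite strand. Sphk2 had 126 counts, and no source used here says whether counting used strand, so a part of the Dbp counts could belong to it.

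Tef (chr15:81802421-81826863, plus strand), a related activator with a weaker rhythm in most tissues, was counted 625 times. It stood at 64.8, 104 and 73.9 CPM in WT Input, 76.2, 123 and 85.2 in KO Input, 105, 135 and 134 in WT IP, and 189, 127 and 106 in KO IP. The WT fractions did not overlap, but by a narrow margin, between WT Input replicate 2 and WT IP replicate 1. An antisense gene, Gm17597, overlaps 2.45% of its exon bases and had no count.

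Hlf (chr11:90336536-90390895, minus strand), the third activator of this family, had 150 counts. Its CPM was 17.4, 7.40 and 10.1 in WT Input, 15.2, 23.1 and 45.5 in KO Input, 26.6, 39.4 and 22.9 in WT IP, and 18.7, 52.3 and 28.3 in KO IP. WT Input was the lowest group and lay below WT IP without overlap. These WT Input values rest on 7, 3 and 3 counts.

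Nr1d1 (chr11:98767932-98775333, minus strand), which encodes the heme-binding repressor REV-ERB alpha, was counted 542 times. It stood at 74.8, 54.3 and 84.0 CPM in WT Input, 49.5, 92.4 and 125 in KO Input, 74.0, 92.5 and 114 in WT IP, and 215, 94.2 and 121 in KO IP. The groups overlapped, and KO IP replicate 1 was the highest library. Its exons share 8.55% of their bases (263 of 3077) with Thra, the thyroid hormone receptor alpha gene on the opposite strand, which had 546 counts, so the same uncertainty over strand applies.

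Nr1d2 (chr14:18204054-18239127, minus strand), which encodes its partner REV-ERB beta, had 590 counts and shares no exon base with another annotated gene. Its CPM was 82.3, 56.7 and 80.6 in WT Input, 103, 92.4 and 79.6 in KO Input, 126, 118 and 144 in WT IP, and 81.7, 118 and 139.6 in KO IP. As for Dbp, the 3 WT IP libraries were above the 3 WT Input libraries, while KO IP replicate 1 lay within the KO Input range.

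Per1 (chr11:69095217-69109960, plus strand), a repressor of the loop that is also induced within the hour by stimuli acting through CREB and the glucocorticoid receptor, was counted 175 times. It stood at 22.4, 39.5 and 6.72 CPM in WT Input, 38.1, 119 and 39.8 in KO Input, 14.8, 30.8 and 42.3 in WT IP, and 49.0, 17.0 and 23.3 in KO IP. KO Input replicate 2 was the highest library, with 31 counts, and WT Input replicate 3 was the lowest, with 2.

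Per3 (chr4:151003652-151044665, minus strand), a member of the family that is dispensable for the core loop, lies within the span of the protein-coding gene Camta1 and had 99 counts. Its CPM was 32.4, 22.2 and 36.9 in WT Input, 26.7, 23.1 and 17.0 in KO Input, 5.92, 29.1 and 8.80 in WT IP, and 16.3, 11.8 and 13.3 in KO IP. KO IP lay below KO Input without overlap, and WT IP lay below WT Input apart from WT IP replicate 2.

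Per2 (chr1:91415982-91459324, minus strand), the Per gene most needed for a stable rhythm, had 7 counts in WT Input, 6 in KO Input, 9 in WT IP and 20 in KO IP. It was at 0 in KO Input replicate 3, WT IP replicate 3 and KO IP replicate 1, and its highest library was KO IP replicate 2 at 15.7 CPM. Arntl (chr7:113207465-113314126, plus strand), the positive factor of the loop, had 9, 8, 14 and 12 counts in the same order of groups and ranged from 1.71 CPM (WT IP replicate 2) to 17.0 CPM (KO Input replicate 3). For both genes the groups overlapped in each comparison. Fitted without the filter, their KO against WT log2 fold changes were 0.36 (SE 0.97) for Per2 and 0.45 (SE 0.88) for Arntl in Input, and 1.06 (SE 0.77) and -0.20 (SE 0.76) in IP. The 95% interval of Arntl held a 2-fold difference in either direction in both fractions, from -1.27 to 2.18 in Input and from -1.70 to 1.30 in IP.

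KO hearts were compared with WT hearts to ask whether the clock genes differed by genotype. In Input, none of the 7 tested clock genes passed an adjusted p of 0.05 (edgeR quasi-likelihood test, Benjamini-Hochberg over 6596 genes), against 0.182% of all tested genes (12, with 469 genes, 7.11%, under an unadjusted 0.05). The fitted log2 fold change was above 0 for 6 of the 7, with a median of 0.35, where the median of all tested genes was -0.01 and 49.4% were above 0. The largest was that of Per1, at 1.48 (SE 0.54, 95% interval 0.37 to 2.60, a 2.79-fold ratio, adjusted p = 0.526), but its groups overlapped. Per1 was the 1 clock gene under an unadjusted 0.05 in Input. Without KO Input replicate 2 its log2 fold change was 0.68, and over 13 other settings it ran from 0.68 to 2.10 with adjusted p from 0.107 to 0.907. Hlf followed at 1.14 (SE 0.61, adjusted p = 0.724), and Dbp, Nr1d2, Nr1d1 and Tef lay between 0.24 and 0.37 (adjusted p 0.840 to 0.909). Per3 was at -0.40 (SE 0.56, adjusted p = 0.916). The intervals bound what could have been missed. For Dbp the 95% interval ran from -0.35 to 1.09, for Tef from -0.37 to 0.84 and for Nr1d2 from -0.21 to 0.91, so a fall of 2-fold lay outside each of these and a rise of 2-fold lay outside those of Tef and Nr1d2.

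In IP, none of the 7 passed either, against 0.0910% of all tested genes (6, with 343 genes, 5.20%, under an unadjusted 0.05). The median of the 7 was -0.04, with 3 above 0 and 4 below, and 50.0% of all tested genes were above 0. Nr1d1 had the largest log2 fold change, 0.58 (SE 0.27, 95% interval 0.02 to 1.15, adjusted p = 0.943), with KO IP replicate 1 the library that stood highest. Without that library it was 0.20. The others lay between -0.26 (Dbp, SE 0.26) and 0.22 (Hlf, SE 0.40), Per1 among them at -0.04 (SE 0.49), or 0.064 with library totals in place of TMM factors.

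**Figure D2:**
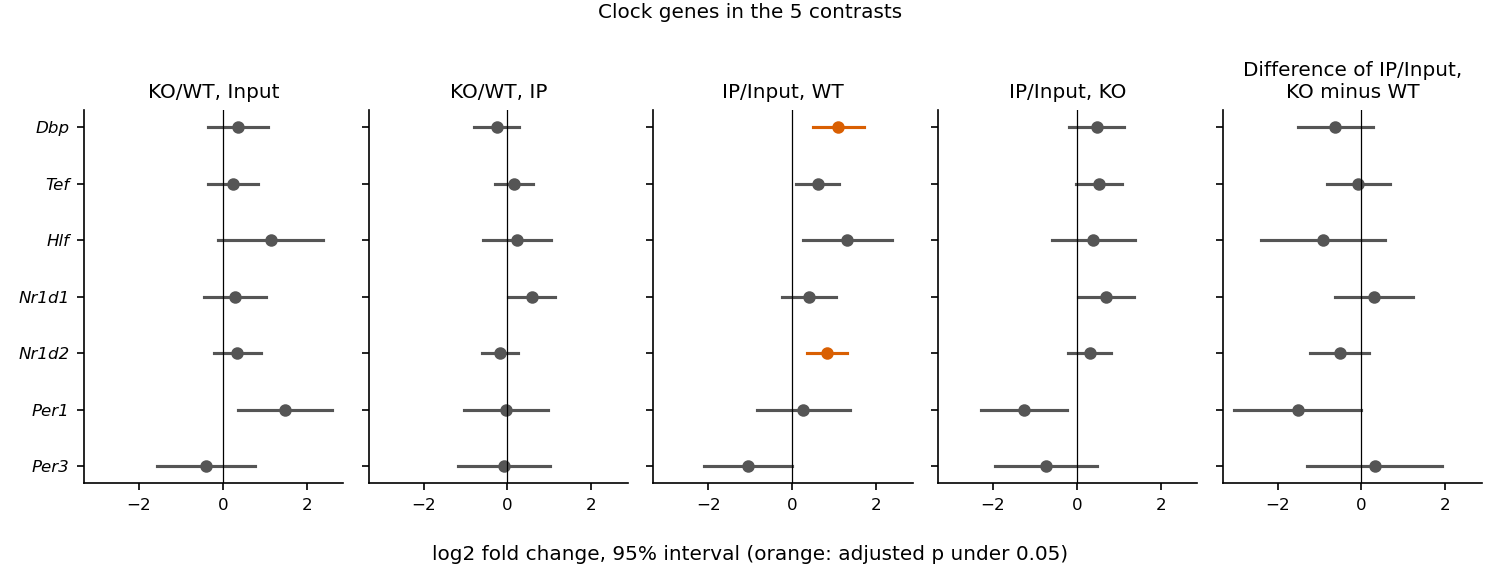
Log2 fold change (horizontal axis) of the 7 tested clock genes (rows) in the 5 contrasts (panels), with dots for the estimate of the edgeR fit and lines for the 95% interval. Of the estimates drawn, those of Dbp and Nr1d2 for IP against Input in WT, drawn in orange, have an adjusted p under 0.05.

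The comparison of IP with Input asks which transcripts were over- or under-represented among those bound to tagged ribosomes. In bulk libraries of this kind, more cells of a type and more RNA per cell cannot be told apart. In WT hearts 2 of the 7 clock genes were higher in IP, against 5.37% of all tested genes higher and 14.0% called in either direction. Dbp rose by 1.10 on the log2 scale (SE 0.29, 95% interval 0.49 to 1.71, a 2.1-fold ratio, adjusted p = 0.0127), from 79.0 ± 26.2 to 173 ± 23.7 CPM. Nr1d2 rose by 0.83 (SE 0.23, 95% interval 0.35 to 1.31, a 1.78-fold ratio, adjusted p = 0.0175), from 73.2 ± 14.3 to 129 ± 13.5 CPM. Each call depended on single libraries. The call of Dbp was lost without WT IP replicate 2 (adjusted p = 0.0583), WT Input replicate 1 (0.0622) or WT Input replicate 3 (0.0742), and that of Nr1d2 without WT IP replicate 3 (0.0686) or WT Input replicate 2 (0.120). The log2 fold change stayed between 0.91 and 1.37 for Dbp and between 0.66 and 0.93 for Nr1d2 over 15 other settings each. Hlf at 1.31 (SE 0.52, adjusted p = 0.0908) and Tef at 0.61 (SE 0.25, adjusted p = 0.105) did not pass, although their fractions did not overlap. In all, 4 of the 7 had each IP library above each Input library, as had 16.4% of all tested genes. In sum 6 of the 7 log2 ratios were above 0, as were 51.1% of those of all tested genes. Nr1d1 was at 0.41 (SE 0.31, adjusted p = 0.422) and Per1 at 0.26 (SE 0.54, adjusted p = 0.803).

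Per3 went the other way in WT hearts, with a log2 ratio of -1.05 (SE 0.51, 95% interval -2.11 to 0.00, adjusted p = 0.180). Its WT IP mean was 14.6 ± 12.6 CPM against 30.5 ± 7.56 CPM in Input. Without WT IP replicate 2, the library with the largest globin share, the ratio was -2.01 with an adjusted p of 0.0279. The part of globin RNA in that library's value was not tested.

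In KO hearts none of the 7 passed, against 16.4% of all tested genes in either direction (6.64% higher, 9.78% lower, and 1936 genes, 29.4%, under an unadjusted 0.05). Nr1d1 had the largest positive log2 ratio, 0.70 (SE 0.32, 95% interval 0.04 to 1.36, adjusted p = 0.145), followed by Tef at 0.53 (SE 0.26, adjusted p = 0.180), Dbp at 0.47 (SE 0.32, adjusted p = 0.336), Hlf at 0.39 (SE 0.48, adjusted p = 0.639) and Nr1d2 at 0.31 (SE 0.25, adjusted p = 0.438). Both Per genes were negative, so 5 of the 7 were above 0, against 50.4% of all tested genes. Per1 was at -1.27 (SE 0.50, 95% interval -2.29 to -0.24, adjusted p = 0.0854), and without KO IP replicate 1 it was -1.74 with an adjusted p of 0.0332. Per3 was at -0.74 (SE 0.59, adjusted p = 0.434), with each of its 3 KO IP libraries below each KO Input library, as had 15.6% of all tested genes.

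Whether the IP to Input ratio differed between genotypes was tested as an interaction. None of the 7 clock genes passed, against 0.0910% of all tested genes (6, with 463, 7.02%, under an unadjusted 0.05), so the calls of Dbp and Nr1d2 in WT hearts were not shown to be particular to WT. The log2 ratio in KO minus that in WT was -0.63 for Dbp (SE 0.44, 95% interval -1.53 to 0.27, adjusted p = 0.826) and -0.52 for Nr1d2 (SE 0.34, 95% interval -1.23 to 0.18, adjusted p = 0.807). That of Per1 was the largest, -1.53 (SE 0.73, 95% interval -3.03 to -0.02, adjusted p = 0.711). For Hlf it was -0.92, for Per3 0.31, for Nr1d1 0.29 and for Tef -0.08, with a median of -0.52 over the 7 against 0.01 over all tested genes, and 2 of the 7 were above 0 against 50.6%.

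Transcript length moved with the IP to Input ratio across all tested genes. The median log2 ratio in WT hearts was -0.49 for 535 genes under 1 kb, -0.20 for 1339 genes of 1 to 2 kb, 0.04 for 2373 genes of 2 to 4 kb and 0.20 for 2344 genes over 4 kb. In KO hearts these medians were -0.56, -0.21, 0.01 and 0.26. Dbp, whose longest transcript has 1837 bases, is the shortest of the 7, and its ratio lay above the trend at its length. With this trend removed, the log2 ratio in WT hearts was 1.26 for Dbp, 1.12 for Hlf, 0.70 for Nr1d2, 0.51 for Tef, 0.43 for Nr1d1, 0.13 for Per1 and -1.26 for Per3. In KO hearts it was 0.64 for Dbp, 0.13 for Hlf, 0.14 for Nr1d2, 0.39 for Tef, 0.73 for Nr1d1, -1.44 for Per1 and -1.04 for Per3. The removal widened the distance between Dbp and both Per genes.

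**Figure D3:**
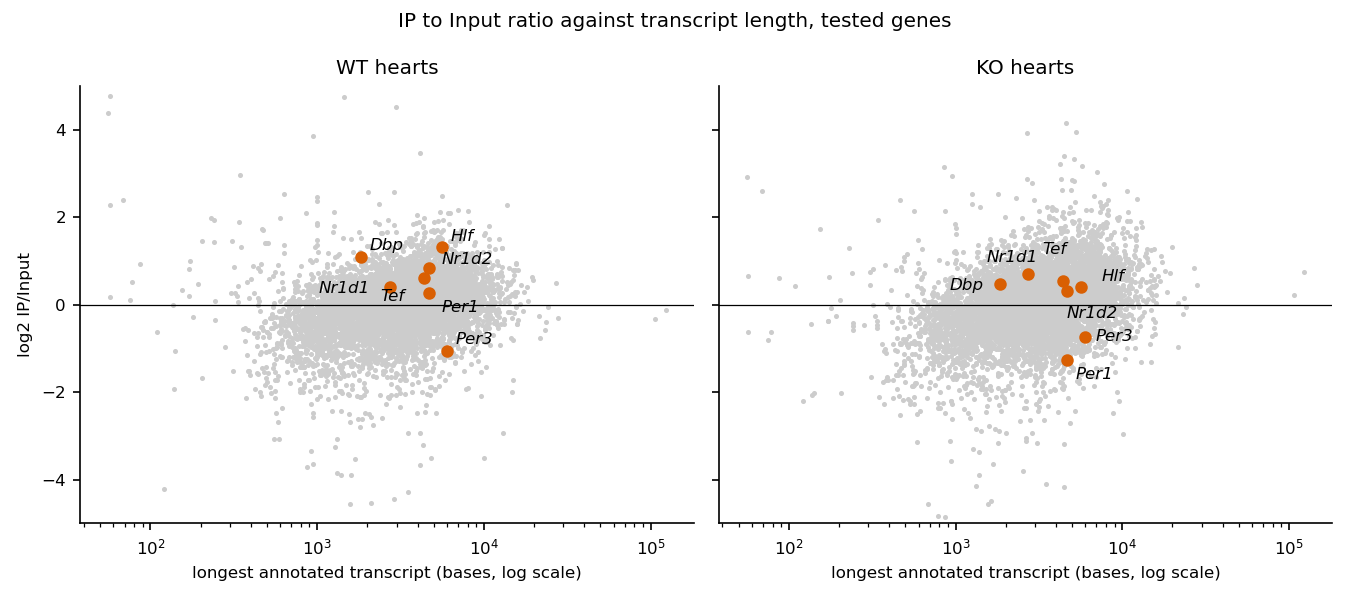
Log2 IP to Input ratio (vertical axis, drawn within the limits shown) against the length of the longest annotated transcript (horizontal axis, log scale) for the tested genes (grey) and the 7 clock genes (orange), in WT and in KO hearts. Dbp lies above most genes of its length in WT hearts, and Per3 lies below most genes of its length in both.

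The spread of the clock genes between replicates of 1 group is of interest because such genes move with the hour. The biological coefficient of variation of the edgeR fit, which is the spread beyond counting error, was 35.7% for Per1, 29.2% for Per3, 27.0% for Hlf, 22.0% for Nr1d1, 21.7% for Dbp, 16.9% for Tef and 14.4% for Nr1d2. The median over all tested genes was 18.5%. This quantity falls with the level of a gene, so each was set against the trend at its own level. Per1 had 1.68 times the trend value, more than 98.5% of tested genes, Dbp 1.43 times, more than 96.5%, and Nr1d1 1.36 times, more than 95.1%. Hlf (1.16), Tef (1.08) and Per3 (1.07) were nearer to the trend, and Nr1d2 was below it at 0.906 times. Over the 4 groups, the observed variance of the counts was 6.16 times that of counting alone for Dbp and 5.78 times for Nr1d1, where the median of all tested genes was 1.64. This variance ratio rises with the count of a gene and, unlike the coefficient above, was not set against the level. By group it ran from 1.87 to 13.8 times for Dbp and from 1.20 to 15.5 times for Nr1d1, with the highest value of both in KO IP. The libraries that stood out there differed, as KO IP replicate 1 was high for Nr1d1 and KO IP replicate 2 was low for Dbp. The part of the hour of collection in this spread was not tested.

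**Figure D4:**
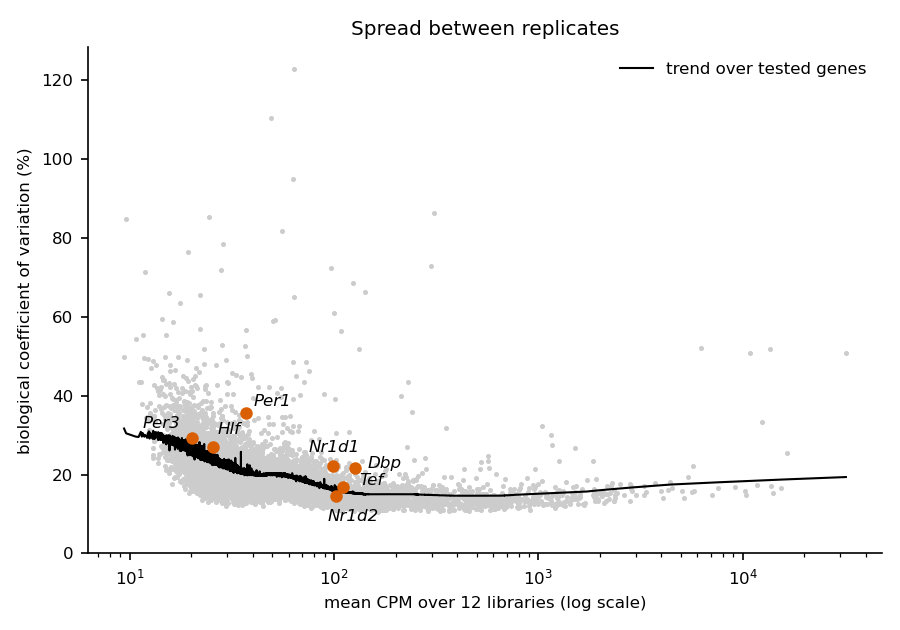
Biological coefficient of variation between replicates (vertical axis, percent) against mean CPM over the 12 libraries (horizontal axis, log scale) for the tested genes (grey), their trend (black line) and the 7 clock genes (orange). Per1 lies well above the trend and Dbp and Nr1d1 above it, while Nr1d2 lies just below it.

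Ratios between clock genes within a library do not depend on its depth or scaling. The count of Dbp divided by that of Nr1d1 was 2.32, 2.13 and 1.31 in WT IP replicates 1 to 3 and 0.870, 0.903 and 1.41 in KO IP. It was 1.03, 1.95 and 0.640 in WT Input and 1.31, 1.00 and 1.36 in KO Input. Pooled over the 3 libraries the ratio was 1.87 in WT IP (316 to 169 counts, exact 95% interval 1.55 to 2.27) and 1.05 in KO IP (248 to 237 counts, 0.872 to 1.26). These intervals cover counting error only, and the single libraries of the IP groups overlapped. The ratio of Nr1d1 to Nr1d2 was 2.63 in KO IP replicate 1, and 0.800 and 0.869 in the other KO IP libraries, which sets that library apart from the 11 others, whose highest was 1.57. The ratio of Dbp to Arntl, genes of opposite phase, rested on 1 to 7 counts of Arntl in a library. It was 5.17, 43 and 8 in WT Input, 5.67, 12 and 10 in KO Input, 19.3, 115 and 12.1 in WT IP, and 26.7, 10.8 and 34.3 in KO IP. The highest values, in replicate 2 of both WT groups, rest on 1 count of Arntl each, and the genotypes overlapped in both fractions. For pooled counts it was 10 in WT Input (95% interval 5.04 to 22.6), 8.88 in KO Input (4.27 to 21.3), 22.6 in WT IP (13.3 to 41.8) and 20.7 in KO IP (11.6 to 40.5). Within each fraction the intervals of the genotypes overlapped almost wholly. In the sum of the 12 libraries Dbp exceeded Arntl by 16.9 times in counts (725 to 43, 12.4 to 23.5) and Nr1d1 exceeded it by 12.6 times (9.23 to 17.6), before any allowance for length. No library of known time was at hand, so these ratios were not turned into a time of collection.

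**Figure D5:**
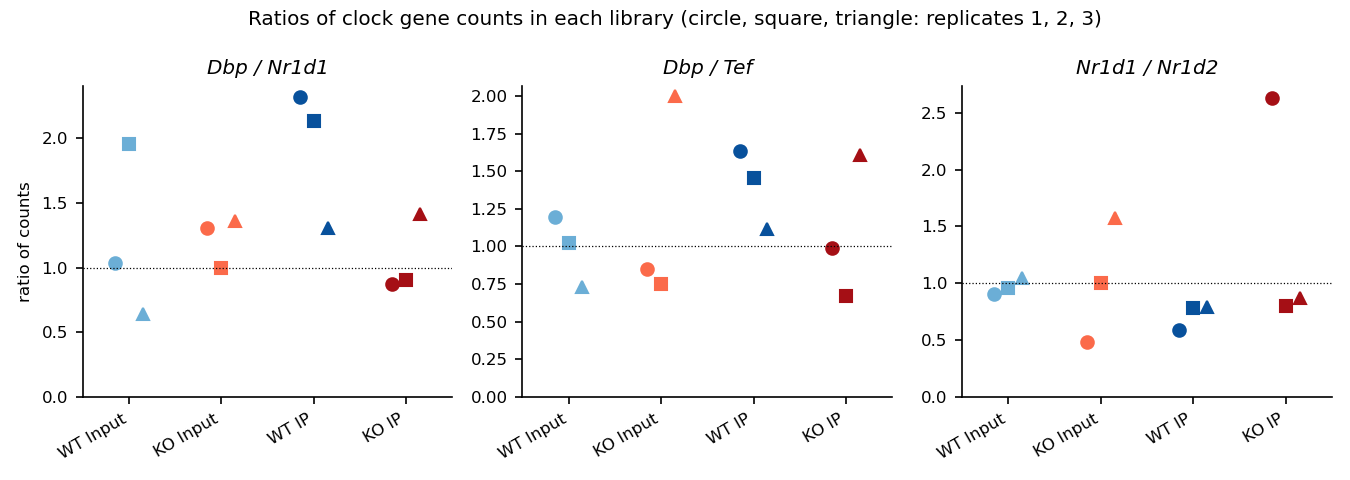
Ratio of the counts of Dbp to Nr1d1, Dbp to Tef and Nr1d1 to Nr1d2 (vertical axes, from 0) in each library of the 4 groups (horizontal axis), with the dotted line at 1. The Dbp to Nr1d1 ratio is above 1 in the 3 WT IP libraries (1.31 to 2.32) and below 1 in 2 of the KO IP libraries, and KO IP replicate 1 stands apart in the Nr1d1 to Nr1d2 ratio.

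The clock genes did not share 1 pattern across libraries. Over the 12 libraries, with log2 CPM centred within each fraction, Pearson's r was 0.76 between Per1 and Tef, 0.47 between Dbp and Per1 and 0.40 between Dbp and Nr1d1, but -0.27 between Dbp and Nr1d2 and -0.51 between Tef and Nr1d2. These points share depth and genotype, and the values are a description. The tested genes whose pattern was most like that of Dbp by the same measure, among 6595, were Arl6ip4 (r = 0.955), Paip1 (0.905) and Esrra (0.903), none of them a clock gene of the set. Summed over the set, CPM was 391, 402 and 356 in WT Input, 392, 589 and 580 in KO Input, 542, 649 and 629 in WT IP, and 763, 528 and 622 in KO IP. Clock transcripts made up a larger part of each WT IP library than of any WT Input library, while the KO fractions overlapped.

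Of 10 other genes of the core loop, 5 could be tested. None was called in KO against WT in either fraction or in IP against Input in WT, and 1 was higher in IP in KO hearts, where 6.64% of all tested genes were. That gene was Bhlhe41, a repressor that competes for E-boxes, with a log2 ratio of 1.17 (SE 0.36, adjusted p = 0.0278), which was lost without KO IP replicate 1 (0.0915), KO Input replicate 2 (0.0807) or KO Input replicate 3 (0.103). Clock, the partner of ARNTL, stood at 35.1 ± 6.15 CPM in WT Input, 38.8 ± 12.2 in KO Input, 32.9 ± 10.5 in WT IP and 46.6 ± 14.5 in KO IP, and it was counted 4.88 times as often as Arntl (3.50 to 6.95). Npas2 had 5, 1, 6 and 8 counts and Cry1 had 6, 7, 14 and 17 counts in WT Input, KO Input, WT IP and KO IP, so neither was tested. Cry2, the more abundant of the Cry repressors here, had log2 fold changes of 0.22 (SE 0.55) in Input and -0.02 (SE 0.38) in IP between genotypes.

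Enzymes that modify clock proteins showed fraction differences in part. Of 12 listed, 8 were tested, and none was called between genotypes in either fraction. In WT hearts Usp2, a deubiquitinase whose transcript is itself rhythmic, was higher in IP by 0.87 on the log2 scale (adjusted p = 0.0130). In KO hearts 3 of the 8 were higher, against 6.64% of all tested genes, namely Gsk3b, a kinase, by 1.30 (adjusted p = 0.00551), Usp2 by 0.85 (adjusted p = 0.0168) and Csnk1d, the PER kinase, by 1.13 (adjusted p = 0.0494). The call of Gsk3b was kept without each of the 6 libraries. Those of Usp2 were lost without 3 of 6 libraries in WT and 2 of 6 in KO, and that of Csnk1d without 4 of 6.

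Heart output genes that have been linked to the clock gave no genotype call. Of 15 listed, 13 were tested, and the smallest p between genotypes was that of Pdk4, a pyruvate dehydrogenase kinase, with a log2 fold change of -1.23 in Input (SE 0.30, adjusted p = 0.110) and -0.42 in IP (SE 0.28, adjusted p = 0.968). In WT hearts Pik3r1, a regulatory subunit of PI3 kinase, was higher in IP by 1.07 (adjusted p = 0.0288) and Tfrc, the transferrin receptor, by 0.92 (adjusted p = 0.0368), calls lost without each of 6 and without 4 of 6 libraries. Dgat2, which makes triglyceride, fell by 0.59 in WT (adjusted p = 0.0349) and by 0.75 in KO (adjusted p = 0.0102), calls lost without 6 and 3 of 6 libraries.

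Per1 also answers to acute stimuli, so lists of other such genes were read beside it. Of 12 early-response genes, 10 were tested and 5 rose in KO Input against WT Input, against 0.152% of all tested genes higher. They were Egr1 (log2 fold change 3.23, adjusted p = 0.00312), Nr4a1 (2.88, adjusted p = 0.00174), Junb (2.17, adjusted p = 0.00312), Ier2 (1.77, adjusted p = 0.0288) and Zfp36 (1.77, adjusted p = 0.0430). The calls of Nr4a1 and Junb were kept without each of the 6 libraries, that of Egr1 was lost without 2, and those of Ier2 and Zfp36 were lost without 5. The summed CPM of the early-response list was 292, 323 and 477 in WT Input and 762, 1233 and 2000.2 in KO Input, so each KO library was above each WT library. In IP none was called, and the sums were 201, 283 and 248 in WT and 278, 289 and 301 in KO. Between fractions, 8 of the 10 were lower in IP than in Input in KO hearts (median log2 ratio -2.20, against 9.78% of all tested genes lower) and 2 of the 10 in WT hearts (median -0.58, against 8.67%), while the ratios of Per1 were -1.27 and 0.26. In the interaction none of the 10 passed in the edgeR fit, and 6 were under an unadjusted 0.05, as were 7.02% of all tested genes. Of 11 glucocorticoid-responsive genes, a list that holds Per1, 10 were tested and 1 rose in KO Input, Sgk1, by 1.90 (SE 0.35, adjusted p = 0.0108), a call lost without 3 of 6 libraries. The KO Input library with the highest Per1 level, replicate 2, also had the highest glucocorticoid sum of the Input libraries, 1529 CPM. The sum was 1009 and 1068 in the other KO Input libraries and 769 to 892 in WT Input. It includes Per1 itself, at 119 CPM in KO Input replicate 2. In IP the 2 did not go together, as KO IP replicate 2 had the highest glucocorticoid sum, 1570 CPM, but the lowest Per1 of its group, 17.0 CPM. The early-response sum was highest in KO Input replicate 3. The part of acute induction in the Per1 values was not tested.

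Some cell type markers were called between fractions, where 8.67% of all tested genes were lower in IP in WT and 9.78% in KO hearts. The 4 atrial cardiomyocyte markers were all lower in IP, with a median log2 ratio of -3.68 in WT and -3.85 in KO hearts, and their summed CPM ran from 6658 to 8689 in WT Input and from 8063 to 11737 in KO Input, against 394 to 1092 in WT IP and 301 to 1001 in KO IP. Of the endothelial markers 1 of 6 was lower in WT and 3 of 6 in KO, and the 1 adipocyte marker tested was lower in both. Of the fibroblast markers 2 of 6 were lower in KO and 0 in WT, and of the smooth muscle, leukocyte and erythroid markers none was called in either. Of 6 tested cardiomyocyte markers 1 was lower in WT and 1 was higher in KO. The summed endothelial level ran from 2219 to 3033 CPM in WT Input and from 1516 to 2061 CPM in WT IP. No cell type marker on these lists was called between genotypes in either fraction. The part of atrial and endothelial RNA in the IP to Input ratios of the clock genes was not tested. Of 8 temperature-responsive genes, 5 were tested. Rbm3, a cold-induced RNA-binding protein gene, was the 1 call, lower in IP by a log2 ratio of -2.08 in WT (adjusted p = 0.000196) and -1.59 in KO (adjusted p = 0.00500), and none was called between genotypes.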

How the data were processed

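The deposited files hold raw counts, whole numbers per gene and library. Per the submitters' processing notes, minimap2 2.14, DESeq2 1.34.0 and build GRCm38 were used, with no role given; no source used here names the counting tool, the annotation or the use of strand. Of 55401 gene IDs, 55141 matched GENCODE M21 without version, which gave names, lengths and positions. Groups came from the sample titles. Tests were run in R 4.3.3 with edgeR 4.0.16 and limma 3.58.1, using filterByExpr (minimum count 10, minimum total 15), TMM factors, 1 mean per group over all 12 libraries, quasi-likelihood tests and Benjamini-Hochberg adjustment over 6596 genes, with a threshold of 0.05. The procedure was tested on simulated counts with the spread at the trend, which is below that of Per1, Dbp and Nr1d1. CPM are TMM-scaled. The SE is the log2 fold change divided by the square root of F. Intervals of pooled ratios are exact 95% intervals for counting error only. With 3 libraries against 3, a rank test cannot go below an exact p of 0.1, so calls rest on the edgeR model. No replicates were duplicates, since their counts differed by 2.32 to 10.8 times sampling noise (chi-square per degree of freedom).

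The clock genes, the other gene lists and the tests were chosen with earlier results of these data known. Named genes were all 10 members, called genes of each list (at most 6, smallest p first), otherwise the one with the smallest p between genotypes, Clock, Npas2, Cry1 and Cry2, genes sharing exon bases with a member, and the 3 genes most like Dbp. Some genes of the lists are not reported here. Alternatives were other scalings, filters, tests (DESeq2 1.42.0, limma-voom), only the groups compared, a replicate block and leaving out each library. The removal of the length trend (loess, span 0.5) and the alternatives for genes other than the members were chosen after seeing the data.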

Additional observations from a re-analysis of the deposited data

How the results depend on the processing

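Same-numbered libraries of different groups did not deviate together (correlations of deviations -0.115 to 0.0423, own number best in 0 of 18 cases), so no pairing by number was seen. Low correlations between shallow libraries cannot exclude that Input and IP share hearts, under the same or other numbers. The main tests treat the libraries as separate. With the replicate number as a block, the genotype contrast called 15 genes in Input and 8 in IP, the fraction contrast 858 in WT and 1009 in KO, and the interaction 4, with 2 clock genes called for fraction in WT and 0 in each other contrast, so the block changed no call of a clock gene. Without the count filter the KO against WT calls were 77 genes in Input and 55 in IP, the interaction had 37, and 2 clock genes were called in IP against Input in KO (Per1 at -1.15, adjusted p = 0.0475, and Nr1d1 at 0.81, adjusted p = 0.0429). A stricter filter called 5 genes in KO against WT in Input, DESeq2 10 in KO against WT in IP, and limma-voom 1 in the interaction. Leaving out 1 library at a time gave 4 to 17 genes for KO against WT in Input, 2 to 7 in IP, 601 to 686 for IP against Input in WT, 739 to 997 in KO and 1 to 8 for the interaction. For clock genes it gave 1 to 2 calls in IP against Input in WT, 0 to 1 in KO, and 0 in the other 3 contrasts. The direction of Per1 and Per3 in KO against WT in IP turned with library totals (0.064 each), and that of Per3 with limma-voom (0.22). Library totals in place of TMM shifted the all-gene median by 0.12 in KO against WT in IP and by 0.15 in IP against Input in KO, with 3 and 5 clock genes above that median under either scaling. They changed the calls of IP against Input from 354 higher and 572 lower to 386 and 441 in WT, and from 438 and 645 to 599 and 448 in KO. Uncalled values changed sign when 1 library was left out. In KO against WT in IP, Per1 ran from -0.53 to 0.32, Per3 from -0.49 to 0.86, Tef from -0.088 to 0.32, Dbp from -0.45 to 0.045 and Hlf from -0.30 to 0.46. In KO against WT in Input, Tef ran from -0.033 to 0.47 and Dbp from -0.036 to 0.64. In IP against Input, Per1 ran from -0.11 to 0.88 in WT and Hlf from -0.12 to 0.85 in KO. For the interaction, Per3 ran from -0.088 to 1.27, Nr1d1 from -0.087 to 0.56 and Tef from -0.32 to 0.18. The causes of these changes were not tested. Of all alternatives for single genes, those named above included, 900 kept direction and call, 82 lost the call, 4 gained one and 22 changed sign. Depth sets a limit too. Per2 and Arntl did not pass the count filter, and in the shallowest library, KO Input replicate 3, 3 counts stand for 17.7 CPM.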
